A study of Drosophila melanogaster with 3 samples.

Results

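The regions described are peaks of CG18599-GFP recovery that lie between genes in the fruit fly embryo. A member was a peak of the deposited list filtered by irreproducible discovery rate (IDR), a measure of how well replicate rankings match, whose summit lay outside the span of every protein-coding gene in the Ensembl models and 501 to 10000 bp from the nearest protein-coding transcription start site (TSS). 1253 IDR peaks met this rule, which uses position alone, and 7605 did not, so the members made up 14.1% of the list. CG18599 is a homeodomain protein. The samples were 3 biological replicates of whole embryos of mixed sex, aged 0 to 24 hours, from a transgenic line that stably expresses CG18599 with green fluorescent protein (GFP) joined to its C-terminus. Chromatin was sheared by sonication and precipitated with an antibody against GFP. All 3 replicates form 1 group, no control sample was analysed here, and the whole embryo mixes every tissue and stage of embryogenesis.

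In chromatin immunoprecipitation followed by sequencing (ChIP-seq), a peak is a stretch of DNA recovered with the tagged protein more often than its surroundings, and its summit is the point of highest recovery. DNA between genes can hold enhancers, which raise the transcription of a gene at a distance, insulators, which separate neighbouring regulatory regions, and the promoters of non-coding RNA genes. Homeodomain proteins hold DNA through a helix that reads short sequences rich in A and T, most often with a TAAT core. The nearest gene is given below as a label of position, since nothing measured here links a peak to the gene it acts on.

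Sequences of 50 bp on each side of the summit are shown for 6 members, all on the plus strand of the dm6 build from the RefSeq genome assembly. The first 2 were the strongest members of the list that could be shown and held none of the 4 motifs that were more frequent at summits than beside them. The other 4 were, among the members that could be shown, the strongest to hold one of those motifs, which were the homeodomain core TAAT for the CG4004 window at rank 38, the GATA factor core TGATAA for tara, the hexamer ATATTA for foxo and the repeat TATATA for chinmo. Capitals mark these motifs on either strand.
CG4004, rank 8, chrX:12751273-12751373: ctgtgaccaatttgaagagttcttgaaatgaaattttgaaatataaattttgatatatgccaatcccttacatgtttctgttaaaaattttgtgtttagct
hll, rank 36, chr2L:14024035-14024135: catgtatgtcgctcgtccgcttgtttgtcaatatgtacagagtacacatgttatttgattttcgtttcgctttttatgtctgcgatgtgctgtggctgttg
CG4004, rank 38, chrX:12752309-12752409: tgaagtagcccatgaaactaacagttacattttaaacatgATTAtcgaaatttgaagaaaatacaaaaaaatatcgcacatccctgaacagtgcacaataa
tara, rank 59, chr3R:16224490-16224590: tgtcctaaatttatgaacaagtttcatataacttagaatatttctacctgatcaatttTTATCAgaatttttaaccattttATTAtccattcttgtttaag
foxo, rank 73, chr3R:14053550-14053650: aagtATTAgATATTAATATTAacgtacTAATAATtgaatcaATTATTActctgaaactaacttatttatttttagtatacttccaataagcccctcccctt
chinmo, rank 304, chr2L:1649365-1649465: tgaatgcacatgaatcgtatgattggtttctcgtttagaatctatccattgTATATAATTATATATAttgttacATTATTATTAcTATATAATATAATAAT
The foxo and chinmo windows held clusters of these motifs, and the CG4004 window at rank 8 held none although 73.3% of its bases were A or T. The hll window was the least rich in A and T of the 6, at 58.4%.

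Each deposited list ranks peaks by a signal value whose scale is not given in the sources used here, so strength is given as a rank, with rank 1 the strongest. A replicate's rank at a member is that of its strongest summit within 250 bp, so members closer together than that can share one replicate summit. The read numbers behind the lists are unknown, which leaves no interval for a single peak. The strongest member lay 5006 bp from the start of CG4004, in the gap between CG4004 and Paics, which encodes an enzyme of purine synthesis. It ranked 8 in the IDR list, and 8, 6 and 14 in replicates 1, 2 and 3, where its deposited signal values were 1878, 3271 and 2152. It spanned positions 12750808 to 12751707 of chromosome X and lay inside the non-coding gene lncRNA:CR44619. A second member near CG4004, at rank 38, ranked 41, 35 and 40 in the replicates. All 3 replicates therefore placed both peaks among their strongest.

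The member near hll ranked 36 in the list and 26, 36 and 41 in the replicates. Its summit lay 14 bp from the start of lncRNA:CR31840 and 2916 bp from that of hll, and its sequence is shown above. The member near Psc, which encodes a Polycomb group protein that helps to keep genes silent, ranked 37, with replicate ranks of 29, 38 and 29. The start of lncRNA:CR44339 lay 145 bp from that summit. A pair of members upstream of tara, a gene of the Trithorax group, ranked 41 and 59. The first ranked 43, 58 and 32 in the replicates and the second 55, 74 and 53. The member near eEF1gamma, which encodes a translation elongation factor subunit, ranked 48, with 44, 50 and 62 in the replicates, and lay 120 bp from the start of lncRNA:CR31044. The 6 peaks after the strongest one thus lay between ranks 26 and 74 in every replicate.

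The remaining members of the strongest 15 were near DNAlig3 (a DNA ligase, rank 72), foxo (a transcription factor of the insulin pathway, rank 73), CycB (a mitotic cyclin, rank 88), jp (junctophilin, rank 134), chinmo (a zinc finger protein that times neuronal identity, rank 152), Hex-A (a hexokinase, rank 159), ph-d (a Polycomb group protein, rank 171) and stck (an adaptor at integrin contacts, rank 174). The foxo peak ranked 78, 81 and 70 in the replicates. The chinmo peak spread more, with ranks of 114, 128 and 211. The strongest entries of each replicate list, as many as the IDR list holds, are called its top list below. All 15 had a summit in the top list of every replicate, 12 lay upstream of the nearest start, 9 lay in gaps between divergent genes, and 5 had a non-coding gene start within 500 bp. In replicates 1, 2 and 3 their weakest ranks were 177, 204 and 211.

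**Figure D1:**
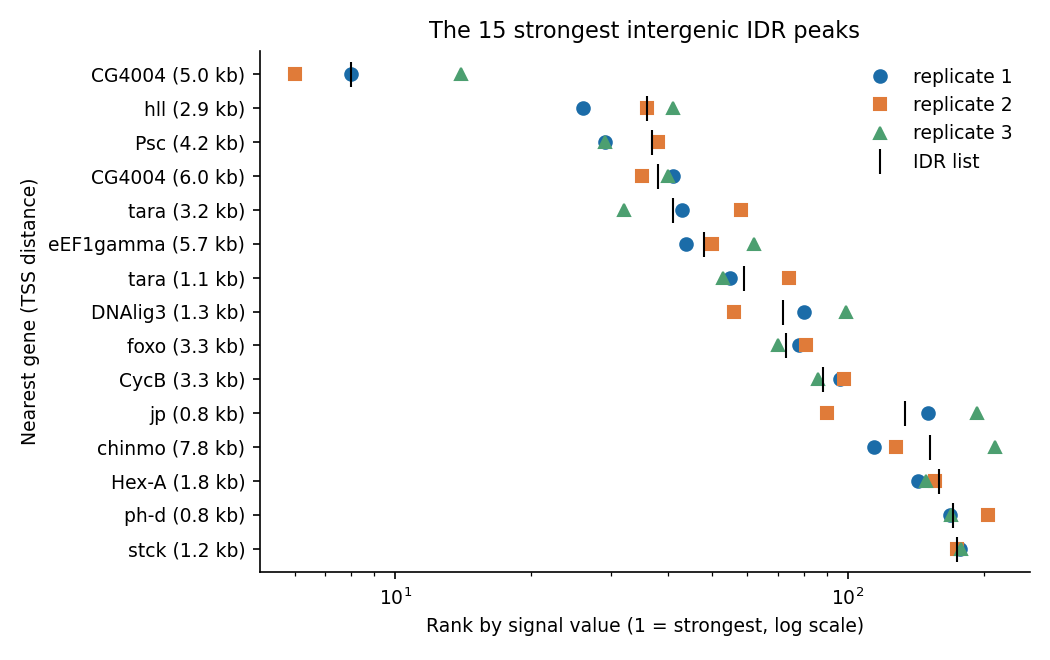
Rank by signal value (horizontal, log scale, 1 is the strongest) of the 15 strongest intergenic IDR peaks, each named by its nearest gene and TSS distance. Vertical ticks give the rank in the IDR list and symbols the rank in each of the 3 replicates, which for the CG4004 peak at the top were 8, 6 and 14.

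The members as a class were weaker than peaks inside introns in the same distance range. The classes were not matched for distance, with a median of 3029 bp for members and 2403 bp for those intronic peaks. The part of distance in the differences between them was not tested. Of the 1253 members, 553 (44.1%) were in the upper 50% of the IDR list, against 1494 of 3039 intronic peaks 501 to 10000 bp from a TSS (49.2%), an odds ratio of 0.817 (Fisher's exact test, two-sided, Benjamini-Hochberg adjusted over 7 comparisons, p = 0.00487). Peaks were the units of this and the later Fisher tests, and neighbouring peaks are not independent replicates. The share was lower for intergenic than for intronic summits in each of the 3 replicate lists. It was 43.9%, 43.6% and 44.1% for intergenic summits and 49.7%, 48.5% and 48.8% for intronic ones in replicates 1, 2 and 3, a difference of -5.18 ± 0.545 percentage points (SD, n = 3). The 2 sets of values did not overlap. Over 3 replicates an exact sign-flip test cannot go below p = 0.25, so none was made. Promoter summits, within 500 bp of a TSS, were higher, at 57.3% ± 1.03 (SD, n = 3). Other classes of the IDR list were lower than the members. Their shares were 41.7% for intergenic and 39.6% for intronic peaks over 10000 bp from a TSS, and 38.7% for exonic peaks. A share under 50% was thus not particular to the members. Among the strongest 10% of the list were 88 members, or 7.02%, where the whole list gives 10% by definition. Within the upper 50% of the list alone the difference from intronic peaks no longer passed the test (-4.29 points, Fisher's exact test, adjusted p = 0.126).

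**Figure D2:**
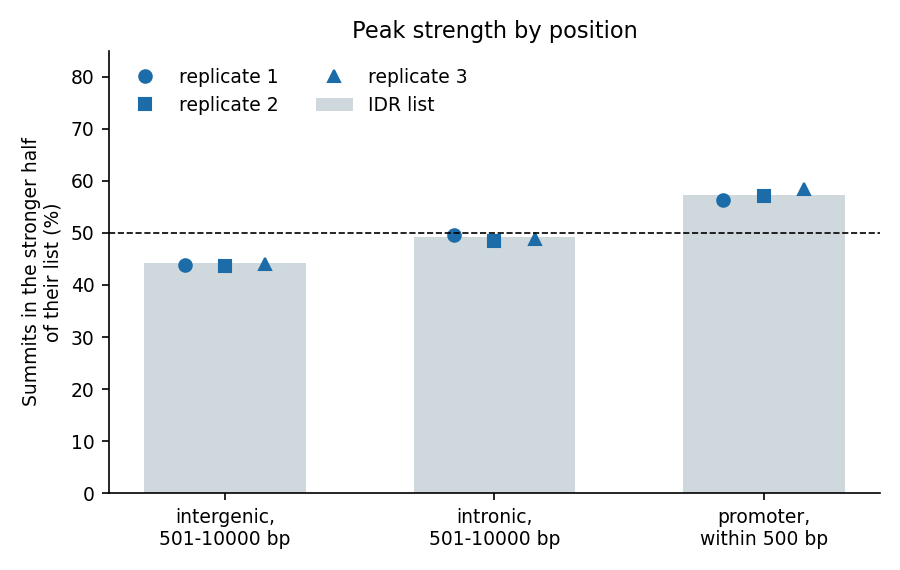
Share of summits in the upper 50% of their list (vertical, percent) for intergenic, intronic and promoter summits. Bars give the IDR list and symbols the top list of each replicate. The intergenic symbols sit between 43.6% and 44.1%, below the intronic symbols, which sit between 48.5% and 49.7%. The dashed line marks 50%.

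The share of each replicate's top list that met the rule was 13.8%, 13.5% and 15.3%, or 14.2% ± 0.956 (SD, n = 3), with replicate 3 the highest. Of the members, 878 (70.1%) had a summit within 250 bp in the top lists of all 3 replicates, 256 in 2, 111 in 1 and 8 in none. The IDR list was made from these same replicates, so support was partly built in. The comparisons of support below describe spread and are no independent evidence for the peaks. Over all IDR peaks 70.1% had support from every replicate, so the members stood at the background of the list. Support was 71.4% for intronic peaks (Fisher's exact test, adjusted p = 0.461) and 70.2% for promoter peaks (adjusted p = 0.913), and a p that misses the threshold does not show equal support. Taking all 30000 entries of each replicate, 97.4% of members had support from every replicate, 6.22 points above promoter peaks (Fisher's exact test, adjusted p = 2.73e-14). Within the upper 50% of the IDR list, 98.6% of members had support in the top lists of all 3 replicates. This was 5.38 points above promoter peaks (Fisher's exact test, adjusted p = 8.06e-07). Against intronic peaks the same settings gave differences of 0.624 points (Fisher's exact test, adjusted p = 0.331) and 0.695 points (adjusted p = 0.434). Promoter peaks were recovered least in replicate 3 (81.4%, against 88.8% and 90.8% in replicates 1 and 2), while members were recovered most there (89.6%, against 84.6% and 85.7%).

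The IDR list held exactly the strongest entries of a list of 30000 made from the 3 replicates pooled, of which 29.5% were kept. Under the rule's conditions 1253 of 5504 pooled entries were kept (22.8%). The share was 28.3% of 10728 intronic entries in the same distance range, an odds ratio of 0.746 (Fisher's exact test, two-sided, p = 1.91e-14, compared after seeing the data). It was 47.6% at promoters, 19.3% for intergenic and 20.1% for intronic entries over 10000 bp from a TSS, and 17.3% for exonic entries. This repeats in other terms the lower strength given above, since the same signal value decides both.

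Members thinned out with distance from the TSS. The genome between genes that could hold a member came to 21.9 Mb and held 57.3 members per Mb. The density was 75.8 per Mb at 501 to 1000 bp (95% exact Poisson interval 64.9 to 88.0), 68.2 from there to 2000 bp (60.1 to 77.1), 56.4 from there to 5000 bp (51.3 to 61.8) and 47.6 from there to 10000 bp (42.9 to 52.8). These intervals cover counting error only. The comparison set was the 3667 pooled-list summits that met the same rule and lay over 1000 bp from any IDR summit. Their density was 148, 165, 173 and 170 per Mb in the same 4 distance classes. Of the members 34.1% lay within 2000 bp of the TSS, against 26.0% of those other summits, an odds ratio of 1.47 (Fisher's exact test, adjusted p = 3.80e-07). With all 4251 pooled summits outside the IDR list as the comparison, which keeps those close to IDR summits, the difference was 6.88 points in place of 8.12 (Fisher's exact test, adjusted p = 2.24e-05). The share within 2000 bp was 34.4% ± 1.74 (SD, n = 3) over the replicate lists.

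**Figure D3:**
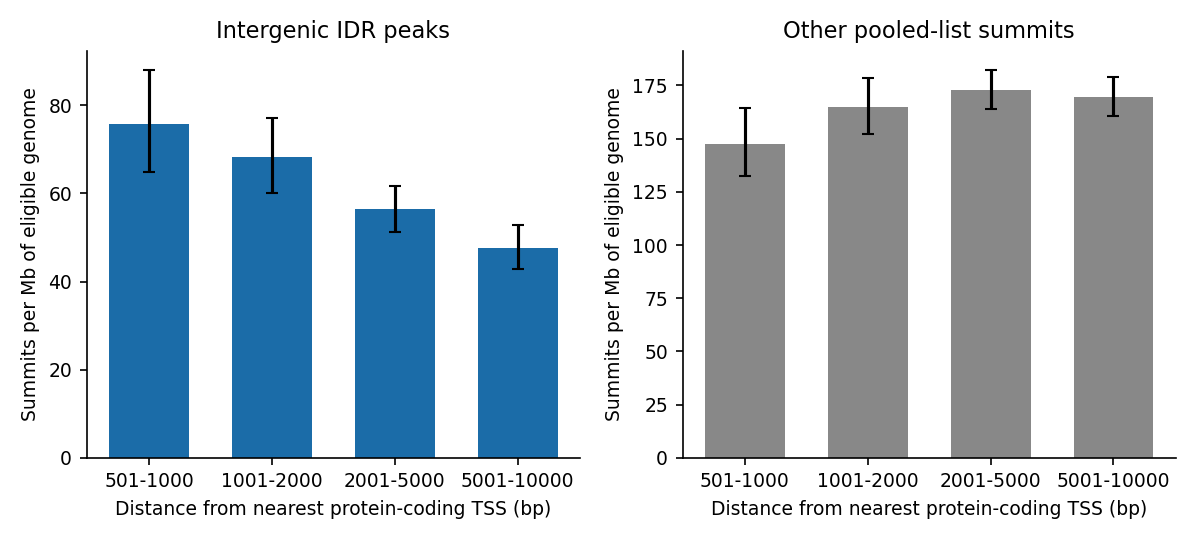
Summits per Mb of eligible genome (vertical, each panel with its own scale from 0) by distance from the nearest protein-coding TSS, for the 1253 intergenic IDR peaks (left) and the 3667 other pooled-list summits under the same rule (right). Bars are densities and error bars 95% exact Poisson intervals. The left panel falls from 75.8 to 47.6 per Mb, and the right panel is lowest in the nearest class, at 148 per Mb.

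The nearer members included more of the strongest peaks. Of the 427 members within 2000 bp of the TSS, 10.1% were among the strongest 10% of the list, against 5.45% of the 826 further away (Fisher's exact test, adjusted over 9 comparisons chosen after the data were examined, p = 0.0151). Their share in the upper 50% was 46.6% against 42.9% (exact test, adjusted p = 0.375). At the edges of the rule, the member nearest the lower bound lay 501 bp from the start of sff, at rank 5876, and the nearest intergenic peak left out lay 496 bp from CG42700, at rank 8617. At the upper bound a member at rank 7088 lay 10000 bp from CG12684, and a peak at rank 8843 was left out at 10013 bp from CG15136. The median distance of members was 3029 bp, with quartiles of 1534 and 5557 bp.

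Orientation differed less. 849 members (67.8%) lay upstream of their nearest start, against 62.9% of the other pooled summits (Fisher's exact test, adjusted p = 0.0151, chosen after the data were examined). The density was 59.8 per Mb on the upstream side (55.8 to 63.9) and 52.8 on the downstream side (47.7 to 58.2), intervals that overlap. Gaps between divergent genes, whose starts face each other, held 32.6% of members and 29.2% of the other summits (exact test, adjusted p = 0.0378), with densities of 64.8 per Mb in divergent, 59.6 in convergent and 52.8 in tandem gaps. The divergent result did not pass with every pooled summit as the comparison (2.64 points, exact test, adjusted p = 0.105), without replicate 3 (3.54 points, adjusted p = 0.0612), or under 3 other settings given in the closing section. Across the chromosome arms the density was 63.4 per Mb on 2L, 62.2 on 3L, 54.8 on 3R, 54.7 on X and 51.5 on 2R, and 4 members lay on chromosome 4.

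Starts of non-coding genes lay near 111 members. Within 500 bp of the summit there was such a start at 8.86% of members and 6.03% of the other pooled summits, an odds ratio of 1.52 (Fisher's exact test, adjusted p = 0.00198). Over all IDR peaks the share was 4.20%, which includes peaks inside protein-coding genes. It was 6.98% for intergenic IDR peaks over 10000 bp from a TSS, and 1.97% for intronic peaks in the members' distance range. Summits meeting the rule in the replicate lists had a share of 9.28% ± 0.712 (SD, n = 3). Eligible genome near a non-coding start held 104 members per Mb (85.9 to 126), and the rest 54.9 (51.8 to 58.2). The other pooled summits were denser there too, at 208 against 166 per Mb. The rule left peaks near protein-coding starts out and kept those near non-coding ones. Of the 111 members, 82 (73.9%) had support from all 3 replicates, and the median distance to the non-coding start was 230 bp.

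The non-coding genes at these members were mostly long ones. 88 of the 111 starts belonged to genes named as long non-coding RNA (lncRNA), 7 to antisense RNA, 5 to microRNA, 4 to tRNA, 2 to small nuclear RNA and 2 to small nucleolar RNA. The share of lncRNA among all annotated non-coding starts is not given here, so these counts are not read as a trait of the members. 16 of the 111 members were in the strongest 10% of the list (14.4%), against 6.30% of the other members (Fisher's exact test, odds ratio 2.50, adjusted p = 0.0156, chosen after the data were examined). Their share in the upper 50% was 52.3% against 43.3% (exact test, adjusted p = 0.163). Besides those near hll, Psc, CG4004, eEF1gamma and Hex-A, and named after their values were seen, a member at rank 266 lay 61 bp from the start of Uhg4, a host gene of small nucleolar RNAs, and ranked 242, 245 and 388 in the replicates. A member at rank 404 lay 190 bp from lncRNA:Hsromega, a heat-inducible nuclear RNA, and ranked 446, 469 and 361.

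5 members had a microRNA start within 500 bp, and they ranked between 1181 and 8113. The member 427 bp from the annotated start of mir-275 ranked 1181 in the list and 1259, 1257 and 1319 in the replicates. The member 174 bp from mir-314 ranked 4400, with 5790, 4469 and 4834 in the replicates. The members near mir-34 (rank 4214) and mir-277 (rank 6103) both lay under 10 kb from Fmr1, and each ranked weaker in replicate 3 (13691 and 13408) than in the other 2. The member 479 bp from mir-ban, the bantam microRNA that promotes growth, ranked 8113, with 10289, 11781 and 5956 in the replicates. An annotated microRNA start is that of the hairpin, not of the longer transcript it is cut from.

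Members were grouped unevenly among gaps. They lay in 768 gaps, of which 500 held 1 member, 159 held 2 and 66 held 3, and they had 856 nearest genes. The gap with the most members was that between mtSSB, which encodes the single-strand DNA binding protein of mitochondria, and tara. It was 20400 bp wide and held 14 members, 13 of them supported by all 3 replicates. The 10 members nearest to mtSSB ranked between 1120 and 8659, while the 2 strongest, at ranks 41 and 59, lay 3168 and 1111 bp upstream of tara. The gap between CG44362 and CG7560, 27292 bp wide, held 12 members, all supported by all 3 replicates, with a best rank of 939 (replicate ranks 1084, 906 and 779) and a median of 2310.5. Strength was thus more even in that gap than between mtSSB and tara. In both gaps some close members shared replicate summits, so their support was not separate. The CG7560 members at ranks 1331 and 6500 shared replicate ranks of 1316, 1448 and 1259. The mtSSB members at ranks 2511 and 8659 shared 3097, 2418 and 2479.

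The gap between RFeSP, which encodes an iron-sulfur subunit of the respiratory chain, and chinmo was 37097 bp wide and held 9 members in 2 groups. The 3 nearest to RFeSP ranked 974, 1879 and 1214, and the 6 nearest to chinmo had a best rank of 152. The chinmo member at rank 304 ranked 365, 340 and 218 in the replicates, and its window, shown above, was the richest in A and T of those printed, at 79.2%. Another 3 genes each had 7 members. These were Rh5, which encodes a blue-sensitive opsin (best rank 307, with 340, 304 and 279 in the replicates), RYBP, which binds Polycomb group proteins (best rank 675), and scyl, a brake on growth signalling (best rank 1330). CG42831 and CG13898 had 6 each. The gap between Hacd1 and Rh5 held 7 members in 5886 bp, more per length than the gap between mtSSB and tara. The CG4004 to Paics gap, 7250 bp wide, held 6 members, at ranks 8, 38, 268, 1218, 1488 and 3171, all supported by all 3 replicates.

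**Figure D4:**
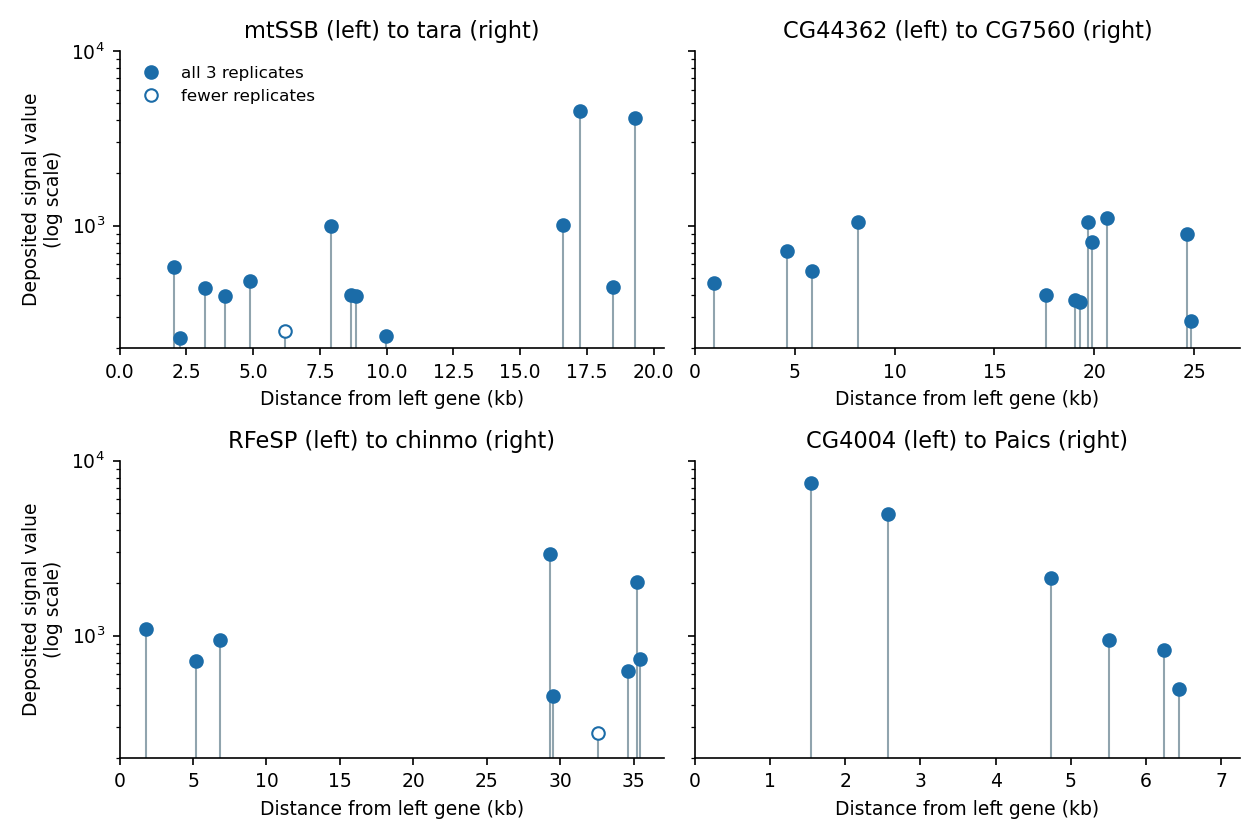
Deposited signal value (vertical, log scale) of members along 4 gaps between protein-coding genes, by distance from the left gene (horizontal, kb; the axis spans the gap). Filled points had a summit in the top lists of all 3 replicates and open points in fewer. Between mtSSB and tara 13 of 14 points are filled, and the 2 tallest stand near tara.

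Crowding was nevertheless lower than in introns. Another IDR summit lay within 1 kb of 26.3% of members and of 29.0% of all IDR peaks. Among intronic peaks in the same distance range the share was 31.6% (odds ratio of members against these 0.774, Fisher's exact test, adjusted p = 0.00198). The difference of -5.25 points fell short of the threshold when any replicate was left out, at -3.28, -3.30 and -2.21 points without replicates 1, 2 and 3 (exact test, adjusted p = 0.0879, 0.0845 and 0.317). In the upper 50% of the list it was -0.569 points (exact test, adjusted p = 0.81). Counting neighbours within 3 kb it was larger, at -11.8 points (exact test, adjusted p = 4.64e-12). Keeping 1 summit per 250 bp left 1167 members and a difference of -5.67 points (exact test, adjusted p = 7.67e-05).

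Base composition changed sharply at the summits. In windows of 51 bp A and T made up 65.3% ± 0.738 of bases at intergenic summits (SD over 3 replicate lists), 54.8% ± 0.512 at 250 bp to the right, 55.4% ± 0.438 at 250 bp to the left, and 58.6% ± 0.119 at 1000 bp. A peak in A and T was thus flanked by troughs below the level further out. Intronic summits followed the same course, with 65.0% ± 0.703 at the centre and 56.3% ± 0.374 at 250 bp to the right. At promoter summits the centre was lower, at 62.4% ± 1.67, and the level at 1000 bp was 56.1% ± 0.105.

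**Figure D5:**
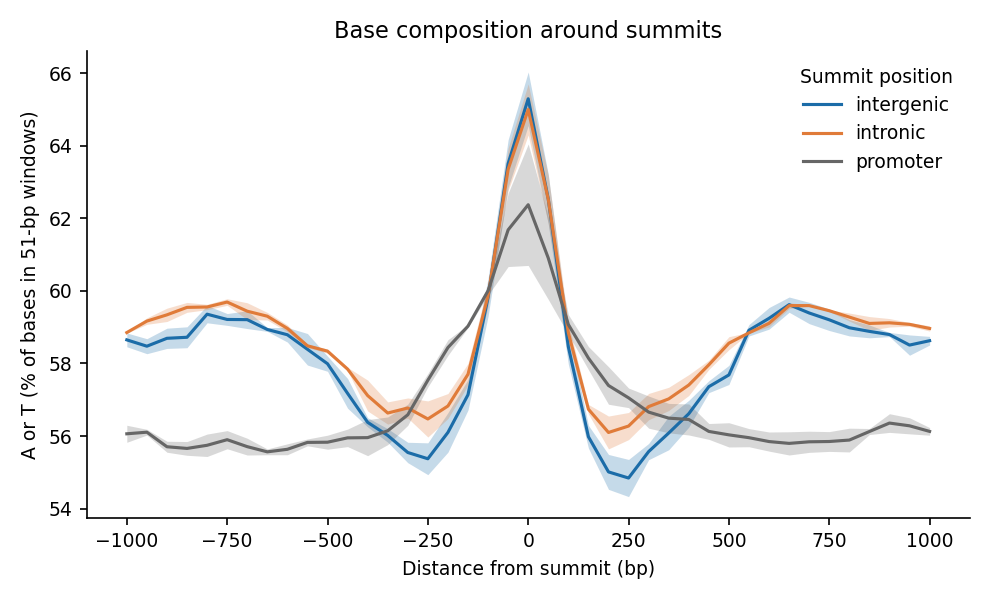
Percent of bases that were A or T in 51-bp windows (vertical axis, not starting at 0) by distance from the summit (horizontal, bp) for intergenic, intronic and promoter summits. Lines are means and bands the SD over the 3 replicate lists. The intergenic line reaches 65.3% at the summit and falls to 54.8% at 250 bp.

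4 of the 18 motifs searched, on both strands, were more frequent within 50 bp of member summits than in windows of equal width 500 bp to either side, and 2 were less frequent (exact test matched within peaks, adjusted over 18 motifs). TAAT, the short homeodomain core, was found at 75.9% of member summits against 62.6% of flanks (exact test, adjusted p = 1.12e-15), a difference of 10.9 ± 1.86 points in the replicate lists (SD, n = 3). It was present at 71.8% of all IDR summits. The GATA factor core TGATAA was found at 9.34% against 6.03% (exact test, adjusted p = 0.000822, difference 2.40 ± 0.135 in the replicate lists), and at 9.66% of all IDR summits. The repeat TATATA was found at 11.8% against 6.15% (exact test, adjusted p = 3.75e-08), and at 10.8% of all IDR summits. ATATTA, at 20.4% and 9.50% and at 18.0% of all IDR summits, had been picked as the most raised hexamer in an earlier scan of these IDR summits, so its test is no independent support. ATATTA ends in ATTA, which is TAAT on the other strand, so every window with ATATTA also counts for TAAT. The TAAT and ATATTA results are therefore not separate. TATATA can overlap both, as in the chinmo window.

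The longer homeodomain palindrome TAATTA, which contains TAAT, was found at 9.10% of member summits against 6.94% of their flanks (exact test, adjusted p = 0.0586), and at 9.04% of all IDR summits. The difference was 2.37 ± 0.347 points in the replicate lists and positive in 3 of 3. It passed under 5 of the alternatives tried, among them windows of 100 bp (exact test, adjusted p = 0.0048). Among the 36 hexamers made only of A and T, counted together with their reverse complements, TAATTA stood 32nd by ratio of summits to flanks, at 1.31, and ATATAA first, at 2.22. The part of base composition in the motif differences was not tested.

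The CA repeat CACACA was less frequent at summits than beside them (7.02% against 10.8%, exact test, adjusted p = 0.000689, lower in 3 of 3 replicate lists), and at 8.18% of all IDR summits. So was the GAGA factor element GAGAG (9.50% against 12.6%, exact test, adjusted p = 0.0153, and 12.0% of all IDR summits). The GAGAG result did not hold with flanks at 1000 bp (-1.72 points, exact test, adjusted p = 0.268), with windows of 100 bp (adjusted p = 0.53) without replicate 3 (adjusted p = 0.0783), in the upper 50% of the list (-3.98 points, adjusted p = 0.0543) or with the lower distance bound raised to just over 1000 bp (adjusted p = 0.106). Against intronic summits at the same distance none of the 18 motifs passed the adjusted threshold by Fisher's exact test, and 2 had an unadjusted p under 0.05, CACACA (p = 0.00654, adjusted p = 0.118) and the E-box CAGCTG (p = 0.0351, adjusted p = 0.316). The promoter elements were rare at members. CGATAG, the BEAF-32 or DREF short element, was present at 1.76% of members and 6.66% of promoter summits, and the DREF element TATCGATA at 0.319% and 1.94%, values given without a test.

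Genes of 30 functional lists were checked for members, as a description. 6.14% of all 13945 protein-coding genes had a member for which they were nearest, and of the 6600 genes with any eligible genome beside them 13.0% were. The lists differ in how much intergenic DNA their genes have, and neither share corrects for that. List counts are over all genes of a list, while the 13.0% is over genes with eligible genome only. Members per Mb are therefore given for several lists, though most rest on few members. Transcription factors of the nervous system had members at 6 of 15 genes, led by zfh2 (rank 577; 528, 526 and 679 in the replicates) and zfh1 (rank 2791; 3130, 3138 and 2474). Their genes had a median of 9500 bp of eligible genome and 74.6 members per Mb, beside 57.3 per Mb over all genes. Axon guidance genes had members at 6 of 21, led by unc-5, a netrin receptor, at rank 2217, and robo3, a Slit receptor, at rank 3232. Their density was 85.6 members per Mb. On these 2 lists the zfh2 member was the strongest.

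Among patterning genes, none of the 8 Hox genes was nearest to a member. The Hox genes had 0.0411 Mb of eligible genome, and all eligible genome held 57.3 members per Mb. The part of that length in the absence of members was not tested. Gap and head gap genes had 3 of 12, led by slp1 (rank 5374) and oc (rank 6932), at 27.4 members per Mb. The slp1 member ranked 15552 in replicate 1 and 5610 in replicate 3, and replicate 2 had no summit within 250 bp. It thus had top-list support from 1 replicate, and the oc member from 2. Pair-rule genes had 2 of 9, slp2 (rank 460; 435, 621 and 325 in the replicates) and hry (rank 3617). Segment polarity genes had 1 of 13, the Hedgehog receptor gene ptc, at rank 1142. Proneural and neuroblast genes had 2 of 16, D (rank 1692) and insc (rank 6388). The pair-rule, segment polarity and proneural lists had 43.5, 13.5 and 34.2 members per Mb. Of the patterning genes named here slp2 alone was among the strongest 10% of the list.

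For signalling pathways, Wnt and Frizzled genes had members at 4 of 12, led by the receptors fz (rank 1162; 752, 1371 and 1542 in the replicates) and fz4 (rank 1384; 1253, 1551 and 1283). Notch pathway genes had 2 of the 17 matched, E(spl)m3-HLH, a target repressor, at rank 2408 and fng, a glycosyltransferase, at rank 6470. Of the Dpp pathway the ligand gene dpp itself was the 1 of 16, at rank 5157. EGFR and FGF pathway genes had 3 of 19, led by the repressor aop (rank 982; 962, 1037 and 893) and kek1, an EGFR inhibitor, at rank 5834. The fz, fz4 and aop members were the strongest of these pathways and had support from all 3 replicates. The Wnt, Notch, Dpp and EGFR lists had 86.1, 58.0, 53.9 and 78.1 members per Mb.

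Mesoderm and heart factor genes had members at 4 of 19, led by bin, a forkhead factor of the visceral mesoderm (rank 399; 384, 370 and 553 in the replicates), and Doc2, a T-box factor (rank 2035). Muscle structural genes had 3 of 15, with Act57B at rank 1649. Gut and GATA factor genes had 3 of 12, led by GATAe (rank 3064) and srp (rank 4053). Ecdysone response genes had 3 of 14, led by Hr38 (rank 705; 946, 965 and 454). The mesoderm, muscle, gut and ecdysone lists had 59.1, 99.8, 114 and 143 members per Mb. The list of Polycomb and Trithorax group genes, which does not include tara, had 2 of 21, and these were the strongest of any list, Psc at rank 37 and ph-d at rank 171, with a second ph-d member at rank 347. Both ph-d members were summits of the same peak interval and shared replicate ranks of 168, 204 and 169. The median gene of that list had no eligible genome at all, so its density of 206 members per Mb rests on 3 members, both ph-d summits included.

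Cytosolic ribosomal protein genes had members at 7 of 92 (7.61%), led by RpS23 at rank 2442, mitochondrial ribosomal protein genes at 1 of 73 and proteasome genes at 1 of 48. None of the 14 insulator and promoter factor genes and none of the 19 heat shock genes was nearest to a member. Their eligible genome came to only 0.00302 and 0.0368 Mb. All eligible genome held 57.3 members per Mb, and the part of these lengths in the absence of members was not tested. The Polycomb and Trithorax list, with 0.0146 Mb, had 3 members. Among lists of genes of differentiated tissues, chemoreceptor genes had 18 of 179 (10.1%), led by Ir94a (rank 695; 781, 793 and 571 in the replicates) and Gr89a (rank 1349), cytochrome P450 genes 7 of 85 (8.24%), led by Cyp9b2 (rank 2530), and cuticle and Osiris genes 6 of 143 (4.20%), led by Cpr76Ba (rank 1409). Cell surface genes of the dpr and DIP families had 3 of 32, led by dpr20 (rank 549; 516, 624 and 593), and neuropeptide genes 1 of 24, Proc (rank 1953). In the remaining lists glial genes had 1 of 11, ion channel and synapse genes 2 of 18, tracheal genes 2 of 13 and antimicrobial peptide genes 1 of 14, with the best rank among them, 4986, at the synaptotagmin gene Syt1.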

How the data were processed

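ChIP-seq peak lists of 3 replicates were analysed in dm6 coordinates. Per the labels' deposited notes, each replicate list came from that replicate's alignments and a control file, the pooled list from the 3 replicates' alignments with no control named, and the IDR list from these. The deposited lists hold the authors' signal values and, as −log10, a q-value, the latter at its maximum for 55.2% of IDR peaks and not used. Not given in the sources used here: the aligner, the peak caller and the cut-off for IDR. The dm3 lists were not used. Read numbers are unknown, so no value carries a depth.

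Summits were placed with Ensembl release 115 gene models. Of the 30000 entries of each replicate list, the strongest, as many as the IDR list holds, were compared with the IDR list, with support at 250 bp. Shares were compared with two-sided Fisher's exact tests, adjusted by Benjamini-Hochberg at 0.05 over 7 comparisons or 18 motifs, with Python 3.11.15 and scipy 1.17.1, checked on simulated data. The members and lists were chosen with earlier results of these data known. Named genes were those nearest to the 15 strongest members, the 8 with most members, up to 2 per list with the strongest member, and those at the distance bounds.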

Additional observations from a re-analysis of the deposited data

How the results depend on the processing

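No paired analysis was possible because all 3 replicates belong to 1 group. The lower share of members in the upper 50% of the list, the nearness to the TSS, the non-coding starts and the 4 motifs more frequent than in flanks kept their direction and side of the threshold under the alternatives run, apart from strength within the upper 50% of the list (-4.29 points), TGATAA there (2.89 points, exact test, adjusted p = 0.0645) and the exceptions below. RefSeq gene models gave the same 1253 members in number. The share of replicate summits meeting the rule was 12.2% with a lower bound raised to just over 1000 bp, 10.02% with an upper bound of 5000 bp and 12.5% in the upper 50% of the list. The share in divergent gaps missed the threshold at 3.32 points (that lower bound, exact test, adjusted p = 0.0511), 2.62 (upper bound 5000 bp, adjusted p = 0.232), 3.07 (1 summit per 250 bp, adjusted p = 0.0667), 3.54 (without replicate 3, in a range to 3.93 when 1 replicate was left out) and 2.64 (every pooled summit, chosen after the data were examined). Support against promoters turned from -0.172 points to 5.38 (upper 50% of the list) and 6.22 (all 30000 entries). Crowding against introns was -0.569 points in the upper 50% of the list, and between -3.30 and -2.21 points when 1 replicate was left out. The motifs less frequent than in flanks numbered 1 in place of 2 with that lower bound, without replicate 3, with windows of 100 bp and with flanks at 1000 bp. CACGTG, an E-box, passed as less frequent than in flanks in the upper 50% of the list and without replicate 1 or 2. Against introns 1 motif, CACACA, was less frequent with 1 summit per 250 bp. The cause of these changes was not tested. The alternative that ranks by q-value could not be computed because of ties, the one that thins summits was not run for the replicate share, and leaving a replicate out leaves only peaks with support, so it gives no value for support. Without read numbers, depth sets an unknown limit on weak peaks.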
